A study of Homo sapiens with 4 samples.

Results

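The genes described here repair broken or mispaired DNA. They comprise factors of homologous recombination, the Fanconi anemia proteins, 2 mismatch repair proteins and the kinases that sense damage and stalled replication forks. The 31 genes were chosen by name from these pathways, with earlier results of these data known. A probe set, a group of short array probes for a transcript, was taken where the platform's gene table listed it for such a gene and no other. This gave 43 probe sets of 29 genes, of 11963 genes measured in all. BRCA2 and FANCA had no probe set listed for them alone and were not analysed here.

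The RNA came from MDA-MB231, a human breast cancer cell line, in 4 conditions with 1 Affymetrix expression array each. One stable line carried PIAS1 shRNA2, a short hairpin RNA against the SUMO ligase gene PIAS1, and the other a scrambled control shRNA, both from a lentivirus under the U6 promoter with puromycin selection. Each line was grown for 30 h in SCM, a serum-free medium with EGF, basic FGF and insulin, or in DMEM with 10% FBS. Whether a line descends from 1 clone is not given in the sources used here.

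As each condition had 1 array, the spread between cultures is unknown and no p-value was computed. The arrays hold MAS5 signals on a linear scale, with medians of 605 in both SCM arrays, 591 for PIAS1 shRNA2 in DMEM and 569 for control shRNA in DMEM. Low signals were compared with those of 56 genes of other tissues, whose 75th percentile was at most 185 on any array. Signals under this floor were raised to it before ratios were taken, so a ratio with 1 such signal is a bound. PIAS1 on its brightest of 3 probe sets read 671 with PIAS1 shRNA2 against 1814 with control shRNA in SCM, and 512 against 1384 in DMEM, 37.0% of control in each. The others kept 31.5% and 77.9% in SCM and 23.8% and 23.1% in DMEM. RNA integrity, read as the 3' over the 5' signal of ACTB, gave 1.07 to 1.11 in SCM and 0.946 to 0.982 in DMEM, and that of GAPDH gave 0.834 to 0.879 and 0.858 to 0.860. The 6 markers of mesenchymal breast cancer lines, among them VIM and CD44, had signals from 15004 to 74601. Of 9 luminal genes, FOXA1, CDH1 and PGR were under the floor on every array. The other 6 were above it, KRT19 at 3680 to 18700 and ESR1 at 206 to 706. In DMEM, with PIAS1 shRNA2 before control shRNA, ESR1 read 206 and 216 and the luminal gene TFF1 276 and 233, near the floor.

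Homologous recombination copies lost sequence from the sister chromatid and therefore works in S and G2 phase. MRE11, RAD50 and NBN bind the broken end, EXO1 and the helicase BLM widen it into single-stranded DNA, and BRCA1 with BARD1, XRCC2, XRCC3, RAD51C and the RAD54 proteins act in the later steps, in which the broken strand pairs with the intact copy. The Fanconi core complex with its ubiquitin ligase FANCL marks FANCI and its partner at DNA crosslinks, and MSH6 and PMS1 act on mispaired bases after replication. ATM and ATR are the kinases that signal breaks and stalled forks to CHEK2 and CHEK1. Many of these genes are transcribed most in dividing cells, in part through E2F factors.

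Upstream sequences were searched for words of cell cycle factors, and XRCC2 and EXO1, which differed between the shRNAs in opposite directions in SCM, both held an E2F word. Of the 31 members, 26 had a window in the promoter table of RefSeq (GRCh38.p14), which runs from 250 bases before to 50 bases after the annotated start of the gene, a position that need not be the start used most in these cells. The words searched on both strands were TTTGGCGC, TTTCGCGC, TTTCCCGC and TTTGCCGC for E2F, TTTGAA and TTCGAA for the CHR element of G2 and mitotic genes, and CCAAT for NF-Y. An E2F word was in 6 of the 26 windows (23.1%), in 3.33% of all 27305 windows of this length and in 5.43% of the 6963 windows of genes above the floor on average. A CHR word was in 3 of the 26 windows (11.5%), in 16.6% of all and in 11.1% of those of genes above the floor, and CCAAT was in 13 (50%), 35.7% and 37.5%. The 3 windows printed belong to the recombination genes XRCC2 (chr7:152676092-152676391, minus strand), EXO1 (chr1:241847954-241848253, plus strand) and BLM (chr15:90717096-90717395, plus strand), which differed by at least 1.5-fold between the shRNAs in SCM. BRCA1 and FANCI did so too, and FANCI had no window among the 26. The BRCA1 window (chr17:43170278-43170577, minus strand) held none of these words and is not printed. Only 1 window per gene was searched, so BRCA1 start sites outside it were not examined. The windows are written 5′ to 3′ along the gene with the words found in capitals.
XRCC2: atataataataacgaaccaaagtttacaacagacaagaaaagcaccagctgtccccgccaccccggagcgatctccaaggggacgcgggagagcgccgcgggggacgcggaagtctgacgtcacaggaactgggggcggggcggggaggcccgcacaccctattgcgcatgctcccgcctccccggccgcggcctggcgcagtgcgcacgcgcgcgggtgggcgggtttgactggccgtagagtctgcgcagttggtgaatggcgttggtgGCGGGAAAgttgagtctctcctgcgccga
EXO1: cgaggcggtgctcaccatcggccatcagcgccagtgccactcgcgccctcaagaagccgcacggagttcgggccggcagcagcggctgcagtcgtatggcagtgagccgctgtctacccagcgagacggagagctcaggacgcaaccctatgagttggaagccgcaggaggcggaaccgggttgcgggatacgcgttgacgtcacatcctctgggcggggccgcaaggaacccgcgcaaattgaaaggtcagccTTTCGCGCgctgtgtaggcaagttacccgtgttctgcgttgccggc
BLM: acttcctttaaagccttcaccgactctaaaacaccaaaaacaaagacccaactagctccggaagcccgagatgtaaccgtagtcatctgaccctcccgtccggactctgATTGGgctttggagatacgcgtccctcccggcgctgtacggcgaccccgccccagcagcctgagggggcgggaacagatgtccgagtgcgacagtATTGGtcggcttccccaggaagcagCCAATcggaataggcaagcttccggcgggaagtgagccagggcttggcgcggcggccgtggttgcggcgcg
The capitals in XRCC2 are TTTCCCGC read on the opposite strand, 22 bases into the gene, and those in EXO1 are TTTCGCGC, which begins at base 5 of the gene. BLM held CCAAT at 3 places, 2 of them on the opposite strand, and no E2F or CHR word. The 5 measured members with an E2F word were EXO1, FANCC, MSH6, TOPBP1 and XRCC2, with a median log2 ratio of SCM over DMEM of -1.44 in PIAS1 shRNA2 cells and -1.42 in control shRNA cells, beside -1.35 and -1.01 over the 19 without one. A match of letters is no measured binding site.

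The main difference in these genes lay between the media and was seen in both cell lines. In PIAS1 shRNA2 cells, 18 of the 29 genes (62.1%) were at least 2-fold lower in SCM than in DMEM, where 11.2% of the 8382 genes above the floor on average were, and in control shRNA cells 16 of 29 (55.2%) were, beside 11.6% of all. None of the 29 was at least 2-fold higher in SCM in either line, beside 11.5% of all genes in PIAS1 shRNA2 cells and 11.4% in control shRNA cells. The median log2 ratio of SCM over DMEM was -1.44 in PIAS1 shRNA2 cells and -1.02 in control shRNA cells, while over all genes it was -0.02 and 0.00. These 2 comparisons share no array, and 15 members (51.7%) were at least 2-fold lower in both, beside 8.10% of all genes. In RNA of a whole culture, fewer cells that express a gene and less RNA per cell cannot be told apart.

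**Figure D1:**
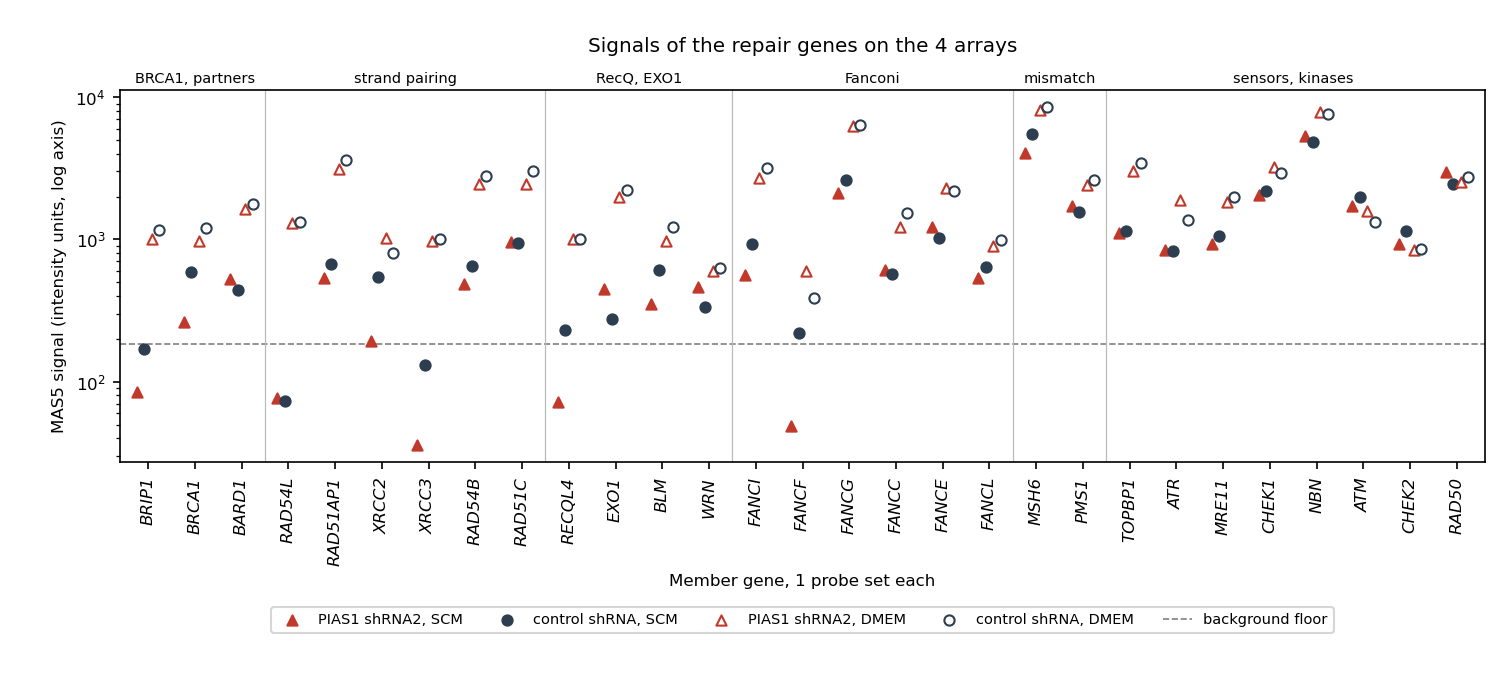
MAS5 signal (intensity units, log axis) of the 29 measured repair genes on the 4 arrays, 1 probe set per gene, grouped by role. Filled symbols are SCM and open symbols DMEM, triangles PIAS1 shRNA2 and circles control shRNA, and the dashed line is the floor of 185. The filled symbols lie below the open ones for most genes, while RAD50, ATM and CHEK2 at the right show no such gap. Signals of different genes come from different probes and cannot be ranked against each other.

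The only repeat reading within these arrays is that of genes with more than 1 probe set. Over 1719 genes of the array with 2 probe sets above the floor throughout, the log2 ratios of SCM over DMEM of the pair differed by a median of 0.28 in PIAS1 shRNA2 cells and 0.26 in control shRNA cells, and 90% of pairs differed by less than 0.85 and 0.84. For PIAS1 shRNA2 over control shRNA, the median differences were 0.20 in SCM and 0.19 in DMEM, with 90% under 0.61 and 0.65. These values cover disagreement of probes on 1 array and not the spread between cultures.

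Partners of BRCA1 were lower in SCM. BARD1, which forms a ubiquitin ligase with BRCA1, read 523 with PIAS1 shRNA2 and 439 with control shRNA in SCM, against 1629 and 1784 in DMEM. It was thus 3.12-fold lower in SCM in PIAS1 shRNA2 cells and 4.06-fold lower in control shRNA cells. BRIP1, a helicase that binds BRCA1, read 84.3 with PIAS1 shRNA2 and 168 with control shRNA in SCM, both under the floor, against 1012 and 1167 in DMEM. It was at least 5.46-fold and at least 6.29-fold lower. BRCA1 itself read 265 with PIAS1 shRNA2 and 589.5 with control shRNA in SCM, against 973 and 1194 in DMEM, and was 3.68-fold lower in SCM in PIAS1 shRNA2 cells and 2.03-fold lower in control shRNA cells. Its other probe set gave 2.34-fold and 2.49-fold, so which line differed more depends on the probe set. For these 3 genes both SCM signals lay below both DMEM signals.

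The genes of these later pairing steps had the lowest ratios as a group, with a median log2 ratio of -2.39 in PIAS1 shRNA2 cells and -2.27 in control shRNA cells over 6 genes, RAD54L and XRCC3 entering at their bounds. RAD54L, a DNA translocase of these steps, read 76.4 with PIAS1 shRNA2 and 73.4 with control shRNA in SCM, against 1302 and 1327 in DMEM. With both SCM signals under the floor, it was at least 7.02-fold and at least 7.16-fold lower. RAD54B, its relative, read 482 and 649 in SCM and 2449.6 and 2789 in DMEM, in the same order of lines. It was 5.08-fold lower in SCM in PIAS1 shRNA2 cells and 4.29-fold lower in control shRNA cells. RAD51AP1, a DNA-binding accessory factor, read 534 with PIAS1 shRNA2 and 669.6 with control shRNA in SCM, against 3099 and 3627 in DMEM, and was 5.80-fold and 5.42-fold lower.

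XRCC3, which forms a complex with RAD51C, read 35.7 with PIAS1 shRNA2 and 131 with control shRNA in SCM, against 971 and 1012 in DMEM. Its SCM signals were both under the floor, and it was at least 5.24-fold and at least 5.46-fold lower. RAD51C read 951 and 939 in SCM and 2432 and 3017 in DMEM, with PIAS1 shRNA2 before control shRNA, and was 2.56-fold and 3.21-fold lower. Its other probe set had the same direction with smaller log2 ratios, -0.52 in PIAS1 shRNA2 cells and -0.73 in control shRNA cells, so a 2-fold difference of RAD51C rests on 1 of its 2 probe sets. XRCC2 was the member in which the lines differed most among those above the floor on all arrays. It read 194 with PIAS1 shRNA2 and 542 with control shRNA in SCM, against 1018 and 808 in DMEM, and was thus 5.25-fold lower in SCM in PIAS1 shRNA2 cells and 1.49-fold lower in control shRNA cells.

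EXO1, the exonuclease of end resection and mismatch repair, read 447 with PIAS1 shRNA2 and 274 with control shRNA in SCM, against 1995 and 2225 in DMEM. It was 4.46-fold lower in SCM in PIAS1 shRNA2 cells and 8.11-fold lower in control shRNA cells, where its log2 ratio of -3.02 was the lowest among the members with both signals above the floor. Of the RecQ helicases, RECQL4 read 72.6 with PIAS1 shRNA2 and 231 with control shRNA in SCM, against 1005 and 1001 in DMEM, and was at least 5.42-fold and 4.33-fold lower. BLM, which also dissolves crossed strands, read 351 and 612 in SCM and 975 and 1229 in DMEM, with PIAS1 shRNA2 before control shRNA. It was 2.78-fold and 2.01-fold lower. WRN, the helicase lost in Werner syndrome, had the smallest difference of this group, with log2 ratios of -0.39 and -0.90.

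All 6 measured Fanconi genes were lower in SCM in both lines, and FANCI, FANCG and FANCC were so by at least 2-fold in each. Of all 8382 genes, 3491 were lower in both lines at any size, and 8.10% were at least 2-fold lower in both. FANCI, which is ubiquitinated with its partner at crosslinks, read 558 with PIAS1 shRNA2 and 922 with control shRNA in SCM, against 2712 and 3193 in DMEM. It was 4.86-fold and 3.46-fold lower, and its other probe set gave log2 ratios of -2.71 and -1.14. FANCG of the core complex read 2107 and 2631 in SCM and 6219.5 and 6381 in DMEM, with PIAS1 shRNA2 before control shRNA, and was 2.95-fold and 2.43-fold lower. FANCC, also of the core complex, read 606 with PIAS1 shRNA2 and 575 with control shRNA in SCM, against 1217 and 1536 in DMEM, and was 2.01-fold and 2.67-fold lower. Its neighbour in the complex, FANCE, read 1226.5 and 1027 in SCM and 2284 and 2173 in DMEM, with PIAS1 shRNA2 before control shRNA, and was 1.86-fold and 2.12-fold lower. FANCF, the adaptor of the core complex, read 49.2 with PIAS1 shRNA2, under the floor, and 219 with control shRNA in SCM, against 595 and 389 in DMEM. It was at least 3.21-fold lower in SCM in PIAS1 shRNA2 cells and 1.78-fold lower in control shRNA cells, and FANCL had log2 ratios of -0.76 and -0.62.

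The 2 mismatch repair genes were lower in SCM by less than 2-fold. MSH6, which recognises mispaired bases, had log2 ratios of -0.99 in PIAS1 shRNA2 cells and -0.64 in control shRNA cells, and -0.83 and -0.68 on its other probe set above the floor. PMS1 had -0.49 and -0.75. The 2 readings of MSH6 differed by less than the median difference of such pairs.

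Among the sensors and checkpoint kinases the members split. TOPBP1, the activator of ATR, read 1112 with PIAS1 shRNA2 and 1152 with control shRNA in SCM, against 3016 and 3465 in DMEM, and was 2.71-fold and 3.01-fold lower. ATR read 841 and 824 in SCM and 1897 and 1376 in DMEM, with PIAS1 shRNA2 before control shRNA, and was 2.26-fold and 1.67-fold lower, with log2 ratios of -1.55 and at most -2.23 on its dimmer probe set. CHEK1, the kinase under ATR, had log2 ratios of -0.66 and -0.43, MRE11 had -0.98 and -0.90, and NBN had -0.57 and -0.66.

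ATM, CHEK2 and RAD50 did not share this direction in both lines. ATM read 1706 with PIAS1 shRNA2 and 1994 with control shRNA in SCM, against 1584 and 1329 in DMEM, which gave log2 ratios of 0.11 and 0.58. All 3 probe sets of ATM were higher in SCM in both lines, and the other 2 gave 0.75 and 0.81 in PIAS1 shRNA2 cells and 0.80 and 1.08 in control shRNA cells. CHEK2, the kinase under ATM, read 923 and 1148 in SCM and 842 and 858 in DMEM, with log2 ratios of 0.13 and 0.42. The probe sets of RAD50 gave 0.23 and -0.54 in PIAS1 shRNA2 cells and -0.18 and -0.40 in control shRNA cells, so its direction was mixed in the first. Of the 9 members with several probe sets above the floor on average, RAD50 in PIAS1 shRNA2 cells was the sole case of mixed direction between the media.

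**Figure D2:**
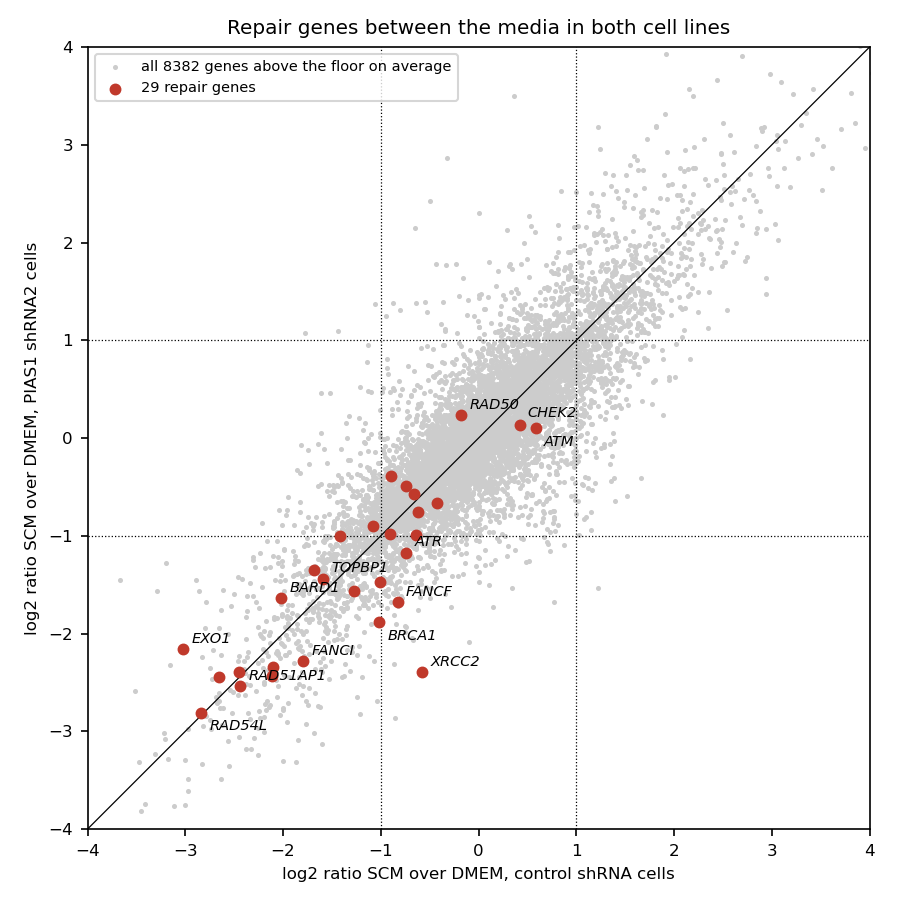
Log2 ratio of SCM over DMEM in control shRNA cells (x axis) and in PIAS1 shRNA2 cells (y axis), 1 array per condition, for 29 repair genes (red) and the 8382 genes above the floor on average (grey, with 24 outside the plotted range). Dotted lines mark 2-fold and the solid line equal ratios. The lower left field holds 15 of the 29 repair genes, and of the red points XRCC2 lies farthest below the line.

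Most genes of replication and mitosis were lower in SCM as well. Of 34 replication licensing and fork genes, 31 were at least 2-fold lower in SCM in PIAS1 shRNA2 cells and 31 in control shRNA cells, with median log2 ratios of -2.36 and -2.05. Of 29 mitotic genes, 28 and 23 were, with medians of -2.23 and -1.60. Of all genes, 11.2% in PIAS1 shRNA2 cells and 11.6% in control shRNA cells were at least 2-fold lower in SCM. The summed signal of the mitotic genes was 95476 with PIAS1 shRNA2 and 165284 with control shRNA in SCM, against 393034 and 399681 in DMEM, and none of them was at 0. The part of these cell cycle levels in the repair gene ratios was not tested.

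The other repair gene lists had smaller median differences. Members and lists were chosen with earlier results of these data known, so this contrast is no independent comparison. Of 25 other genes of recombination, Fanconi and mismatch repair above the floor on average, 7 were at least 2-fold lower in SCM in each line, with medians of -0.83 in PIAS1 shRNA2 cells and -0.74 in control shRNA cells. Of 10 end joining genes, 2 were in each line, with medians of -0.29 and -0.55. Of 29 genes of nucleotide and base excision repair, 3 were lower and 1 was higher in each line, with medians of -0.28 and -0.22. The 3 were 10.3% of the list, near the share of all genes. That share was 11.2% in PIAS1 shRNA2 cells and 11.6% in control shRNA cells, and 11.5% and 11.4% were at least 2-fold higher. Of 14 p53 targets, 2 were lower and 3 higher in PIAS1 shRNA2 cells, and 2 lower and 4 higher in control shRNA cells, with medians of 0.29 and 0.52. The 2 lower p53 targets, 14.3% of that list, were near the share of all genes as well. The 6 luminal genes above the floor had medians of 1.18 in PIAS1 shRNA2 cells, with 3 at least 2-fold higher in SCM and 1 lower, and of 1.75 in control shRNA cells, with 4 higher and none lower. The ratios of ESR1 and TFF1 among them rest on DMEM signals near the floor. All 9 luminal genes had a summed signal of 18561 with PIAS1 shRNA2 and 27486 with control shRNA in SCM, against 9886 and 11682 in DMEM. KRT19 alone made up 12434 and 18700 of this in SCM, and 3680 and 4181 in DMEM. GATA3 was the 1 of the 6 that was lower in SCM, at 1718 and 3103 against 4765 and 6040.5. The part of the luminal genes was not tested.

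**Figure D3:**
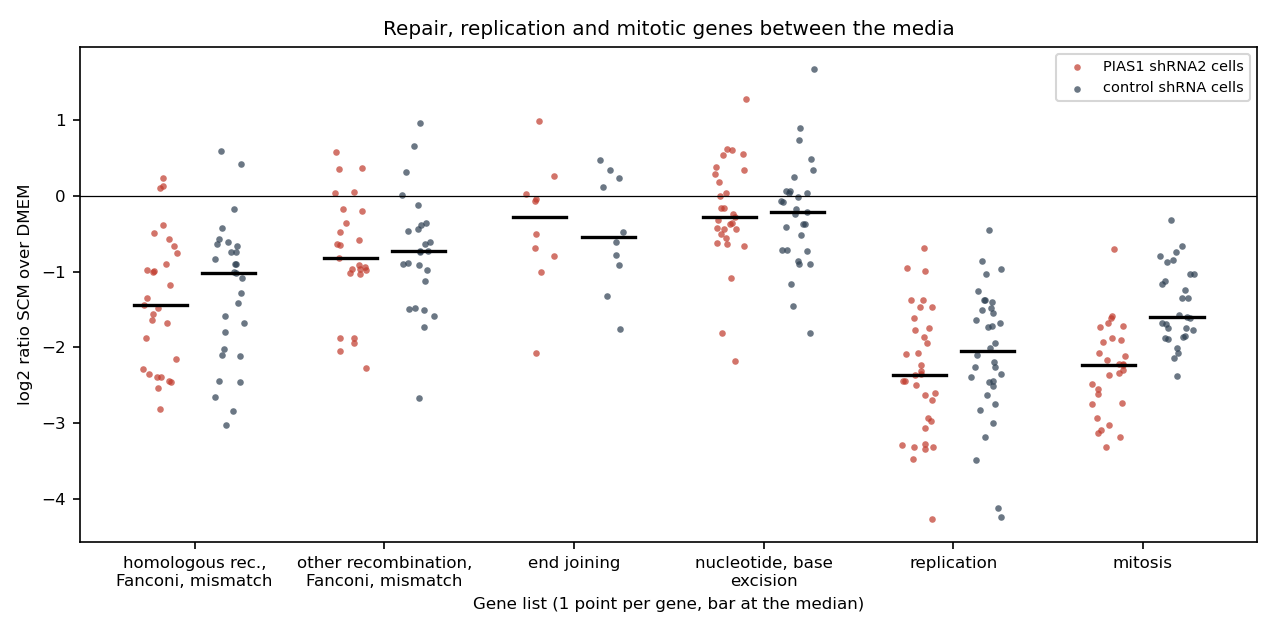
Log2 ratio of SCM over DMEM (y axis) of each gene above the floor on average in 6 gene lists (x axis), in PIAS1 shRNA2 cells (red) and control shRNA cells (dark), 1 array per condition, with bars at the medians. The medians of the homologous recombination, Fanconi and mismatch repair genes at the left, -1.44 and -1.02, lie between those of excision repair, -0.28 and -0.22, and those of replication, -2.36 and -2.05.

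Between the shRNAs, differences in these genes were mostly under 2-fold at floored values, and those at 2-fold were seen in SCM. With 1 line per shRNA, loss of PIAS1 and other differences between the lines cannot be told apart. In SCM, XRCC2 and BRCA1, 2 of the 29 (6.90%), were lower by at least 2-fold with PIAS1 shRNA2 than with control shRNA, beside 1.49% of all genes, and none was higher by as much, beside 2.14%. In DMEM none was at least 2-fold lower or higher, beside 0.859% and 1.44% of all genes. The median log2 ratio was -0.10 in SCM and -0.11 in DMEM, and 0.00 over all genes in each medium. In SCM, BRIP1, RAD54L and XRCC3 had both signals under the floor and can show no difference. Over the other 26 genes the median was -0.21, with 16 lower and 10 higher. Of all 8382 genes, 4145 were lower, 4200 higher and 37 at 0. With deposited signals and no floor, 5 of the 29 were at least 2-fold lower in SCM, beside 2.08% of all genes. Each of these comparisons shares arrays with those between the media.

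Among the members with both signals above the floor, XRCC2 had the lowest ratio in SCM. Its signals of 194 with PIAS1 shRNA2 and 542 with control shRNA were 2.80-fold apart, while in DMEM it was 1.26-fold higher with PIAS1 shRNA2. Subtracting its log2 ratio in DMEM from the one in SCM gave -1.82, and at floored values of 1 probe set per gene no other member reached 2-fold in this difference, beside 2.73% of all genes with a difference of that size downward and 2.55% upward. As deposited, with a signal under the floor in SCM, this difference was -2.77 for FANCF, -1.81 for XRCC3 and -1.68 for RECQL4, and the dimmer probe set of FANCI, above the floor throughout, gave -1.57. XRCC2 has 1 probe set, of a type that can also bind related transcripts, and its lower SCM signal lay just above the floor of 185. With the floor at 288, from the 95th instead of the 75th percentile, its log2 ratio in SCM was -0.92, and a floor of 605, the highest array median, made it 0.

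BRCA1 was 2.23-fold lower with PIAS1 shRNA2 in SCM, with 265 against 589.5, and 1.23-fold lower in DMEM. The other probe set of BRCA1 read 315 with PIAS1 shRNA2 and 372 with control shRNA in SCM, a log2 ratio of -0.24 beside -1.15 on the first. That gap of 0.91 exceeds the 0.61 that 90% of pairs stayed under, so the 2-fold difference of BRCA1 rests on 1 of its 2 probe sets. In DMEM the pair agreed, with log2 ratios of -0.30 and -0.33.

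Both probe sets of FANCI were lower with PIAS1 shRNA2 in SCM. The brighter one read 558 against 922, a log2 ratio of -0.72, and the other read 398 against 1079.9, a log2 ratio of -1.44. Their gap of 0.72 also exceeds the 0.61 that 90% of pairs stayed under, so the size of this difference depends on the probe set. In DMEM the 2 probe sets gave -0.24 and 0.13. BLM was 1.74-fold lower with PIAS1 shRNA2 in SCM, with 351 against 612, and 1.26-fold lower in DMEM. In contrast EXO1 was 1.63-fold higher with PIAS1 shRNA2 in SCM, with 447 against 274, and 1.12-fold lower in DMEM. All these SCM signals except those of FANCI with control shRNA and 1 BLM signal were under the array median of 605.

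FANCF was 1.53-fold higher with PIAS1 shRNA2 in DMEM, with 595 against 389, and at least 1.18-fold lower in SCM, where it read 49.2 against 219. It was the sole member at least 1.5-fold different in DMEM. The log2 ratios of the other members lay between -0.34 and 0.46 in DMEM, the upper end being ATR, whose other probe set gave -0.47. NBN was mixed as well, with log2 ratios in SCM from -0.23 to 0.62 over its 4 probe sets. Of the 9 members with several probe sets above the floor on average, 6 had 1 direction on all of them in SCM and 5 in DMEM.

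**Figure D4:**
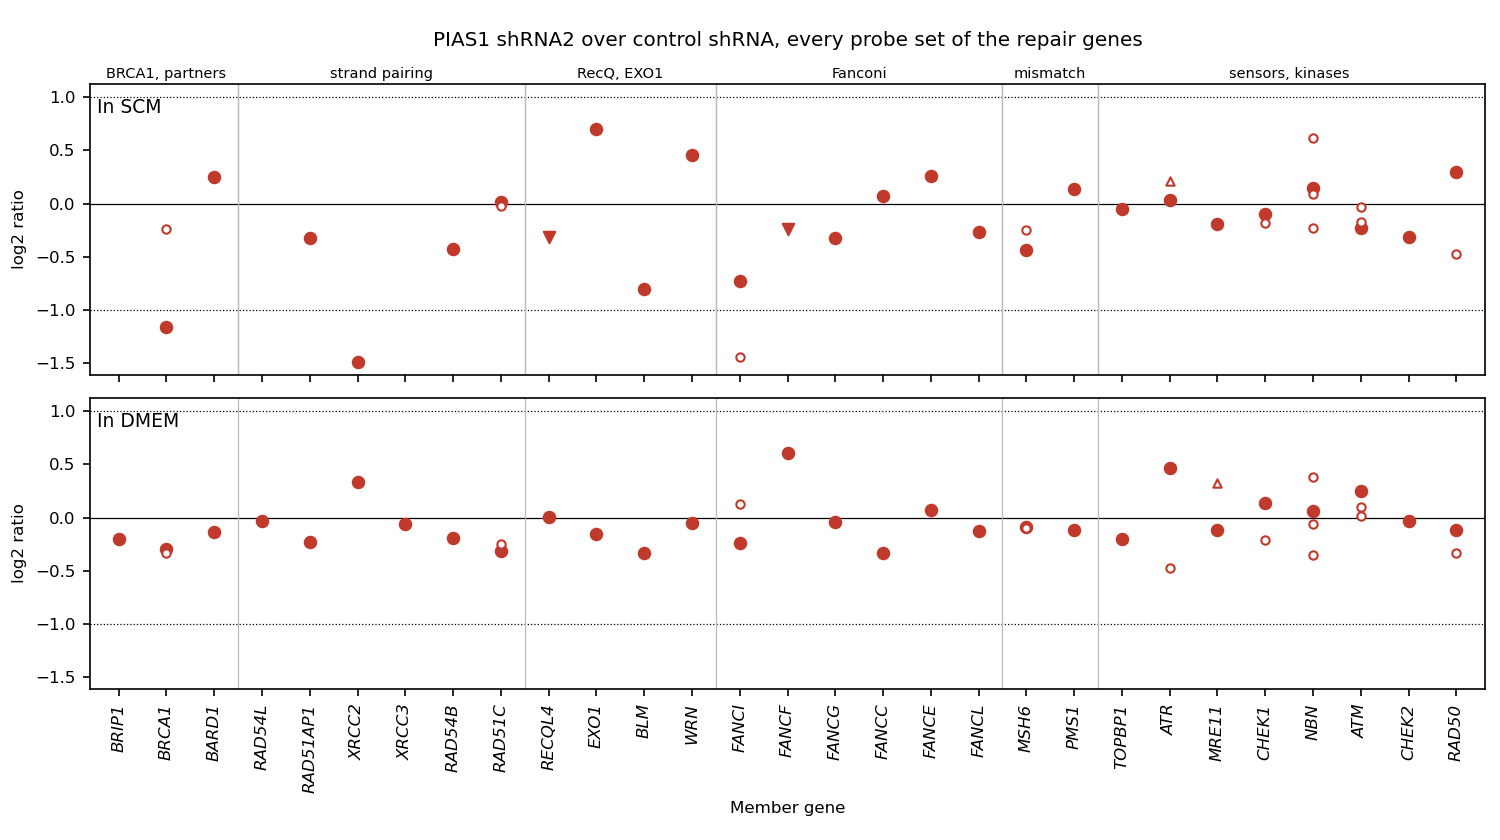
Log2 ratio of PIAS1 shRNA2 to control shRNA (y axes) for each probe set of the repair genes (x axis) in SCM (top) and DMEM (bottom), 1 array per condition. Filled symbols are the probe set read for the gene and open symbols its others, triangles mark bounds with 1 signal under the floor, probe sets with both signals under it are left out, and dotted lines mark 2-fold. XRCC2, BRCA1 and 1 probe set of FANCI lie below the lower line in SCM, and none does in DMEM.

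By role, the log2 ratios between the shRNAs in SCM had a median of -0.07 for the 8 sensors and kinases, -0.16 for the 6 genes of the later pairing steps, 0.07 for the 4 genes of the RecQ group with EXO1, -0.25 for the 6 Fanconi genes and -0.15 for the 2 mismatch repair genes. In these medians RECQL4 entered at a bound of -0.32, FANCF at a bound of -0.24, and RAD54L and XRCC3 at 0. Their deposited log2 ratios, in this order, were -1.67, -2.15, 0.06 and -1.87. The medians of their groups, and the sign of that of the RecQ group, thus depend on the floor. BRCA1 at -1.15 and BARD1 at 0.25 lay on either side of 0. The mitotic genes stood at -0.92 in SCM, with 11 of 29 at least 2-fold lower and none higher, and at -0.05 in DMEM. The replication genes stood at -0.33 in SCM, with 2 of 34 at least 2-fold lower, and at -0.08 in DMEM. Of all genes, 1.49% were at least 2-fold lower in SCM and 2.14% higher. PLK1, a mitotic kinase gene, had -1.43 in SCM, CCNA2, which encodes cyclin A2, -1.39 and RRM2, a ribonucleotide reductase subunit gene, -1.23. At floored values, the repair genes had a median of -0.10 in SCM, nearer to 0 than the mitotic genes, and of -0.23 as deposited. No mitotic gene was under the floor. Neither the difference between these groups nor the part of the mitotic levels in the repair gene ratios was tested.

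Of the 25 other genes of these repair pathways, none was at least 2-fold different between the shRNAs in either medium, with medians of -0.01 in SCM and -0.04 in DMEM. Of all genes, 1.49% were at least 2-fold lower and 2.14% higher in SCM, and 0.859% and 1.44% in DMEM. HUS1, a member of the checkpoint clamp, had -0.96 in SCM, and RMI1, a partner of BLM, had -0.96. MSH3, a mismatch recognition gene, had 0.62, and RAD51B, a recombination gene, had 0.58. In SCM, RMI1 read 1020.4 with PIAS1 shRNA2 and 1985 with control shRNA, against 4944 and 5654 in DMEM. Among the excision repair genes, ERCC4, which encodes a nuclease subunit, read 323 with PIAS1 shRNA2 and 99.6, under the floor, with control shRNA in SCM, a difference of at least 1.74-fold.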

How the data were processed

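RNA of MDA-MB231 cells was measured on 1 array in each of 4 conditions. The authors deposited MAS5 signal intensities, which are linear. MAS5 is named in the submitters' processing notes, with neither version nor settings given in the sources used here. The trimmed mean was 2501 on each array, so the arrays had been scaled to a common level. Of 22277 probe sets, 19070 were listed for 1 gene and 1043 for several, and 2164 had no listed gene. Each gene took the values of the probe set whose log2 signal, averaged over the 4 arrays, was highest. For the floor, the 75th percentile over 76 probe sets (56 genes of other tissues) was taken on each array and the highest was used. The 8382 genes whose mean log2 signal exceeded it were compared.

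No p-value was computed, and members were described by counts and medians beside those of all genes compared. The number of arrays limits the precision. The members and gene lists were chosen with earlier results of these data known. Signals on 4 arrays were given for members at least 1.5-fold different between the shRNAs or 2-fold between the media, and for ATM, CHEK2 and MRE11. From other lists at most the 4 genes with the largest ratios in SCM were named, apart from luminal markers. The 7 alternatives were other floors, array scalings, the mean of probe sets and no filter. The steps were tested on simulated data. Python 3.11.15, NumPy 2.4.6, pandas 2.3.3 and matplotlib 3.10.9 were used, and promoter windows came from RefSeq (GRCh38.p14).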

Additional observations from a re-analysis of the deposited data

Results flagged for a closer look

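Probe sets that were not read for their gene were searched for signals above the floor with PIAS1 shRNA2 where control shRNA was under it. The dimmer probe set of ATR read 215 with PIAS1 shRNA2 and 141 with control shRNA in SCM, near the floor of 185 on both sides. The dimmer probe set of MRE11 read 232 with PIAS1 shRNA2 and 33.3 with control shRNA in DMEM, and 164 against 36.3 in SCM, while the brighter one read 1837 against 1985 in DMEM and 929.8 against 1062 in SCM. Both are values of 1 array each, and what the dim probe set of MRE11 reads was not tested.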

How the results depend on the processing

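Of 91 medians and counts of the members under 7 alternatives, 81 stayed within 0.1 (log2) or 1.5 times. With the deposited signals and no floor, PIAS1 shRNA2 against control shRNA in SCM gave a median log2 ratio of -0.23. In this setting 5 of 29 members were lower by 2-fold or more, beside 2.08% of all genes. The ratio in SCM less that in DMEM had a median of -0.24, beside -0.10 with the floor. That last median turned its sign, to 0.089, under a floor of 605, where 22 members exceeded the floor on average. Under it, 0 members were 2-fold lower with PIAS1 shRNA2 in SCM, beside 0.704% of all genes, so the calls of XRCC2 and BRCA1 were lost. In PIAS1 shRNA2 cells 10 of the 22 were 2-fold lower in SCM than in DMEM, beside 11.1% of all, with a median of -0.99. By construction signals under 605 then show no difference. A floor of 288 left 1 of 27 members 2-fold lower with PIAS1 shRNA2 in SCM, beside 0.934% of all genes. The mean of all probe sets gave 1 member 2-fold higher with PIAS1 shRNA2 in DMEM, beside 1.81% of all genes. That was MRE11, through its dim probe set, at 232 against 33.3 with control shRNA, while its brighter one read 1837 against 1985. The same setting gave a median of -1.17 for SCM over DMEM in control shRNA cells. Over all alternatives, members 2-fold lower in SCM than in DMEM numbered 10 to 20 in PIAS1 shRNA2 cells and 11 to 18 in control shRNA cells. The members compared numbered 22 to 29. Of all genes, 8.03% to 11.9% were so in PIAS1 shRNA2 cells and 8.20% to 13.6% in control shRNA cells. No paired analysis was possible because each condition has 1 array, so no replicate numbers pair samples. An additive fit of medium and shRNA, which would leave 1 residual degree of freedom, was not run. Signals near background in SCM limit the ratios.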
